A study of Mus musculus with 6 samples.

Results

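The 10 genes described here, of 32285 measured, are a glucose transporter and 9 enzymes of glycolysis, taken as named rows of the count matrices: Slc2a1, Hk1, Hk2, Gpi1, Pfkl, Pfkp, Aldoa, Pgk1, Eno1 and Ldha. They were read in single cells of mouse quadriceps muscle 7 days after volumetric muscle loss. The 3 groups were critical injury (a 3 mm defect of the left quadriceps), subcritical injury (a 2 mm defect) and uninjured quadriceps, each from 4 male wild-type C57BL/6 mice aged 2 to 3 months. The cells of each mouse carried a hashtag antibody, and the 4 mice of a group were pooled and run as 1 library, so group and library cannot be told apart. Whole muscles were digested with collagenase and dispase, which releases mononuclear cells and few fibres, so that the muscle fibres themselves are scarcely sampled.

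Glycolysis splits glucose into pyruvate in the cytosol and yields ATP without oxygen. Glucose enters through transporters, is trapped by hexokinase, and is carried through a chain of enzymes to pyruvate, which lactate dehydrogenase turns into lactate. Hypoxia-inducible factors raise transcription of many of these genes, and in wounded muscle inflammatory macrophages, dividing cells and activated fibroblasts are known as heavy users of the pathway.

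In FAP-like cells (fibro-adipogenic progenitors) 5 members, Slc2a1, Hk2, Pfkl, Pgk1 and Eno1, were at least 1.5-fold higher in the critical than in the uninjured library, beside 16.9% of 10214 genes. The promoters shown are those of the 3 among them that hold the core named here, the transporter Slc2a1, the hexokinase Hk2 and the kinase Pgk1; the windows of Pfkl and Eno1 do not hold it. The sequences are RefSeq's for GRCm38.p6 and run 5′ to 3′ on the strand of the gene, from 250 bases before the start site to 50 after it. Capitals mark ACGTG or its reverse complement CACGT, the core that hypoxia-inducible factors bind. The Slc2a1 window is chr4:119108495-119108794 on the plus strand, that of Hk2 chr6:82774405-82774704 on the minus strand and that of Pgk1 chrX:106186850-106187149 on the plus strand.
Slc2a1: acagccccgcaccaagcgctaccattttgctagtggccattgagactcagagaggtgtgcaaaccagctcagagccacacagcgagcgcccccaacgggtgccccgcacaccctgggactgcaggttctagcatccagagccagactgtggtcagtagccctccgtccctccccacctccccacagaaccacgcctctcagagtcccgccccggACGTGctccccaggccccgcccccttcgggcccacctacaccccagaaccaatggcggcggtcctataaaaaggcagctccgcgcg
Hk2: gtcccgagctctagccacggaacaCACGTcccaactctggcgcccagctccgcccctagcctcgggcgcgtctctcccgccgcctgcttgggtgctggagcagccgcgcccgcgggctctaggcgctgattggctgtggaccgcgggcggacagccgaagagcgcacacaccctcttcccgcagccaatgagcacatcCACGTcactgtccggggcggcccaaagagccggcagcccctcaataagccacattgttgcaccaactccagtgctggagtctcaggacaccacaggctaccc
Pgk1: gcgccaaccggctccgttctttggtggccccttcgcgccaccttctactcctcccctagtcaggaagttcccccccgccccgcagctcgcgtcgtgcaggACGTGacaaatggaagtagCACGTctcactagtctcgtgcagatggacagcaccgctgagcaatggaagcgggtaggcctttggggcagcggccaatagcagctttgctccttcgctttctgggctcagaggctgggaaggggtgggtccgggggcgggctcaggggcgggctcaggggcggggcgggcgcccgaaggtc
Slc2a1 had 1 such core and Hk2 and Pgk1 had 2 each. All 10 members matched a promoter in the table, with 16 windows among them, and 6 members had the core in at least 1 window. Those were Slc2a1, Hk1, Hk2, Aldoa, Pgk1 and Ldha. No window of Gpi1, Pfkl, Pfkp or Eno1 held these letters. In all 7 of the 16 member windows held the core on either strand, beside 19.6% of all 32851 windows of 300 bases. Windows of a gene can overlap, as the 2 Aldoa windows with the core do, so the 7 are not all separate stretches.

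The critical, subcritical and uninjured libraries held 3161, 3071 and 2195 barcodes with 7138662, 4954129 and 5681346 transcript counts (UMIs). After filtering, 2972, 2765 and 2116 cells remained, with medians of 1584, 1268 and 1797 UMIs, and 10 to 16 barcodes were shared between any 2 libraries. Clusters were named by marker genes, with the 10 members left out of the genes used to cluster, and carry the ending "-like". The largest classes were fibro-adipogenic progenitors (FAPs, the fibroblasts of muscle) with 900, 751 and 165 cells, endothelial cells with 611, 567 and 1281, macrophages with 776, 830 and 31, and mural cells (pericytes and vascular smooth muscle) with 210, 153 and 245. All 12 FAP, 12 endothelial, 15 macrophage and 12 mural markers had a UMI in each library with 50 cells of the class they name. That is a low bar, since a UMI in any cell of the class suffices. In at least 10% of a cluster's cells, 11 to 12 FAP, 10 to 12 endothelial, 13 macrophage and 10 to 11 mural markers were found. Hashtags traced 90.6% of critical and 93.0% of subcritical macrophage-like cells to 1 mouse, and 34.2%, 33.5% and 55.0% of endothelial-like cells in the 3 libraries in that order (critical, subcritical, uninjured). They traced only 4.79% to 6.11% of FAP-like cells. Macrophage-like and endothelial-like cells were therefore compared between mice, while FAP-like and mural-like cells had 1 library per group, no replicates and no test. Levels by library are CPM (counts per 1e6 UMIs of the class), with 95% exact intervals that cover counting error only. The mice are separate animals, but each group shares a library, and the p-values measure the spread between the mice within those libraries.

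Counts set how much can be said of each gene. Over the critical, subcritical and uninjured libraries Aldoa had 3691, 2541 and 3533 UMIs, Ldha 3423, 2167 and 2184, and Gpi1 1478, 1021 and 1704. The other members ran from 77 UMIs (Hk2, uninjured library) to 1029 (Pgk1, critical library). The sum of the 10 genes, where it is given, is thus mostly Aldoa, Ldha and Gpi1. Eno1 has a near-identical relative, Eno1b, with 120, 64 and 155 UMIs, and how reads were shared between these genes is not given in the sources used here, so that values of Eno1 are uncertain. Aldoa was listed in a second row with 3, 0 and 2 UMIs, which was not used.

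**Figure D1:**
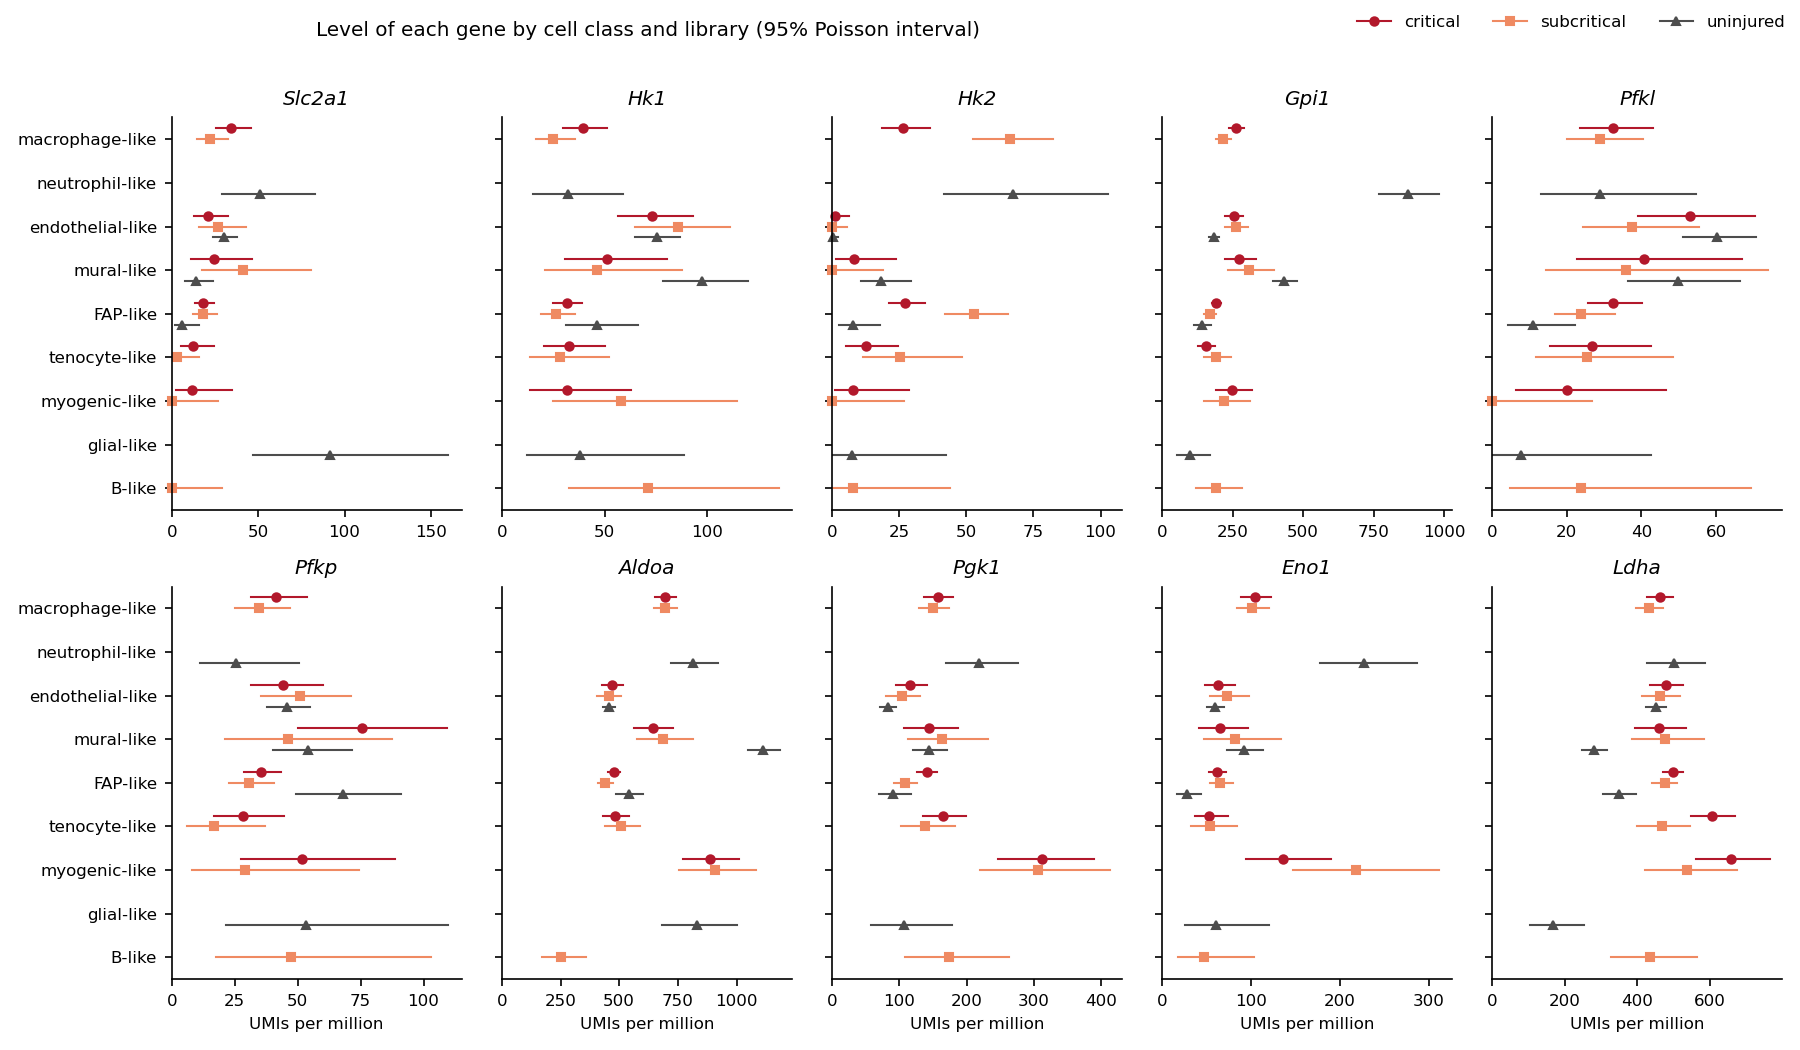
Level of each of the 10 genes in each cell class with at least 50 cells in a library, in CPM. Circles are the critical, squares the subcritical and triangles the uninjured library, and bars are 95% Poisson intervals. Hk2 is at or near 0 in endothelial-like cells, Gpi1 is highest in uninjured neutrophil-like cells (871 CPM), and Aldoa in uninjured mural-like cells (1114 CPM). Of 115 traced uninjured neutrophil-like cells, 106 came from replicate 2.

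In macrophage-like cells Hk2 was the only member called between the injured groups, and it was lower in critical animals. Hk2 encodes the inducible hexokinase, bound to the outer mitochondrial membrane, that phosphorylates glucose on entry. In macrophage-like cells it stood at 26.4, 19.9, 48.2 and 28.9 TMM-scaled CPM (CPM per animal, scaled by edgeR's composition factors) in the 4 critical animals, against 55.8, 50.6, 97.4 and 76.7 in the 4 subcritical animals. The groups did not overlap, although the highest critical animal lay just under the lowest subcritical one. The means were 30.8 ± 12.2 in critical and 70.1 ± 21.4 in subcritical animals (SD, n = 4 each). In edgeR's quasi-likelihood test the log2 fold change, critical minus subcritical, was −1.24 ± 0.316 (SE), with a Benjamini-Hochberg adjusted p of 0.0311 over 3943 genes. Of all genes tested, 0.938% were called in either direction and 2.59% were lower in every critical than in every subcritical animal.

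The Hk2 call rests on few molecules. The critical animals held 3, 8, 12 and 13 Hk2 UMIs and the subcritical animals 10, 13, 23 and 27. They were spread over cells: in the critical library 37 UMIs lay in 33 macrophage-like cells and in the subcritical library 80 in 67, with 37.8% and 27.5% of them in the 10 highest cells. After thinning each cell to 1000 UMIs, 1.52% of critical macrophage-like cells (8 of 525, exact interval 0.660 to 2.98) and 4.63% of subcritical ones (22 of 475, 2.93 to 6.93) held an Hk2 UMI. Unthinned, the shares were 4.25% and 8.07%, at median depths of 1349.5 and 1119.5 UMIs. In thinned endothelial-like cells, taken as the background from free RNA, 0 of 332 critical, 0 of 245 subcritical and 0 of 948 uninjured cells held one, which allows shares of up to 0.904%, 1.22% and 0.316%. Unthinned, these cells held 1, 0 and 1 Hk2 UMIs at median depths of 1072, 924 and 1535 UMIs. The call was lost with DESeq2 (log2 −1.23, adjusted p = 0.270) and in edgeR without cycling cells (adjusted p = 0.0713). With edgeR it was also lost without critical animal 2 or 4 (adjusted p = 0.258 and 0.122) and without subcritical animal 3 or 4 (0.225 and 0.117).

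The other 7 members tested in macrophage-like cells lay near 0 between the injured groups. Their log2 fold changes ran from −0.13 to 0.22 with edgeR adjusted p from 0.866 to 0.998, and Slc2a1 and Hk1 were too low to test. Aldoa, which splits fructose bisphosphate, averaged 733 ± 133 TMM-scaled CPM in critical and 806 ± 28.1 in subcritical animals. Ldha, the lactate dehydrogenase chain of muscle and of glycolytic cells, averaged 490 ± 67.6 and 498 ± 33.5 (SD, n = 4 each). The median over the 8 tested members was 0.01, beside −0.0017 over all genes. Of 37 genes called in all, 11 encode ribosomal proteins (9 of them lower) and 8 are mitochondrially encoded (all higher in critical animals). Rps29 stood at log2 −1.28 and mt-Co2 at 1.17. The median mitochondrial share of UMIs over all cells was 0.375% in the critical library and 0.188% in the subcritical one. The part of this shift between the libraries in the Hk2 difference was not tested. The composition also differed: the MHC class II cluster made up 36.5% of critical and 50.7% of subcritical macrophage-like cells. In that cluster Hk2 was at 16.1 CPM in the critical library and 65.5 in the subcritical one, in the Mmp12-led cluster at 33.0 and 79.3, and in the Mrc1-led cluster at 28.3 and 45.6. These are pooled library values, and per animal the groups overlapped in each cluster. In the MHC class II cluster the critical animals stood at 0, 0, 55.7 and 14.1 CPM and the subcritical ones at 41.3, 70.7, 71.3 and 55.6. In the Mmp12-led cluster the critical animals stood at 27.0 to 44.7 CPM and the subcritical ones at 21.7 to 97.7, and in the Mrc1-led cluster at 21.6 to 44.8 and at 0 to 89.6. Hk2 was too low to be tested within a cluster.

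**Figure D2:**
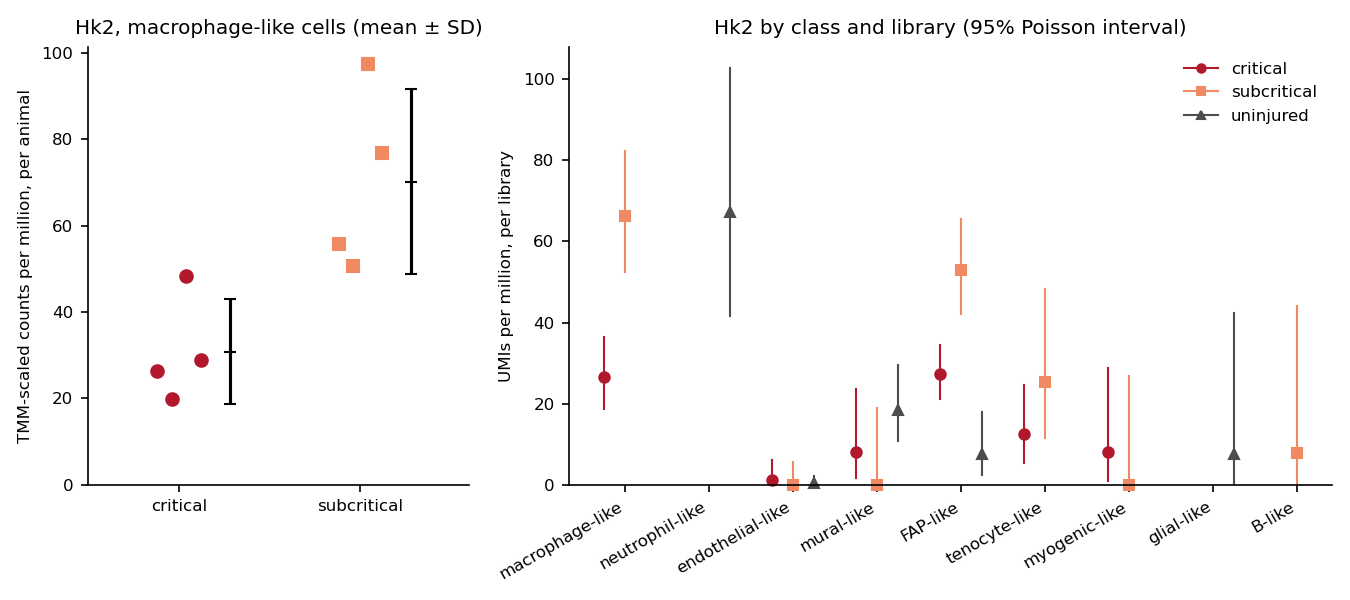
Hk2 in macrophage-like cells of each animal in TMM-scaled CPM, with mean and SD beside the points (left, n = 4 each), and in each class and library in CPM with 95% Poisson intervals (right). The 4 critical animals lie between 19.9 and 48.2 and the 4 subcritical animals between 50.6 and 97.4.

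FAP-like cells had the same order of Hk2 between the injured libraries, and both stood above uninjured cells. Hk2 was at 27.3 CPM (21.3 to 34.5) in the critical, 52.8 (42.2 to 65.4) in the subcritical and 7.72 (2.51 to 18.0) in the uninjured library, from 70, 84 and 5 UMIs. The 3 intervals did not overlap. Among injured FAP-like cells the Postn- and Lrrc15-led cluster had 21.5 CPM in the critical library and 59.4 in the subcritical one (log2 −1.42, −2.05 to −0.81). In the Pi16- and C7-led cluster Hk2 was at 22.4, 30.5 and 7.81 CPM in the critical, subcritical and uninjured libraries, with an interval of −1.48 to 0.62 between the injured ones. Without cycling cells the 3 libraries had 24.6, 48.2 and 7.85 CPM. Macrophage markers are counted in FAP-like cells too: 14, 14 and 7 of 15 were detected, and they summed to 557, 906 and 136 CPM in the critical, subcritical and uninjured libraries. In macrophage-like cells the same markers summed to 47652 and 51226 CPM in the critical and subcritical libraries, and Hk2 was at 26.5 and 66.2 CPM. The part of macrophage transcripts in the FAP-like Hk2 values was not tested.

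In tenocyte-like cells, of tendon, Hk2 was at 12.5 CPM in the critical library and 25.5 in the subcritical one, from 8 and 9 UMIs, and the intervals overlapped. Uninjured neutrophil-like cells had 67.2 CPM (41.6 to 103), and 106 of the 115 traced to a mouse came from replicate 2. Mural-like cells had 8.12 CPM from 3 UMIs in the critical library and 18.4 CPM from 17 UMIs in the uninjured library. The subcritical library had 0 UMIs there, with an exact upper limit of 18.9 CPM. Hk1, the housekeeping hexokinase, had another order over the classes, with its highest levels in uninjured mural-like cells at 97.5 CPM and in endothelial-like cells at 73.0, 85.6 and 75.3 CPM. In macrophage-like cells Hk1 was at 39.4 CPM in the critical library and 24.8 in the subcritical one, and in FAP-like cells at 31.6, 26.4 and 46.3 in the critical, subcritical and uninjured libraries. Over the 18 class-by-library sums with at least 50 cells, the levels of Hk1 and Hk2 had a Pearson r of −0.67 as a description, since these sums share libraries.

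Injured FAP-like cells held more transcript of most members than uninjured ones, with Pfkp, Aldoa and Hk1 on the other side. In the critical library 5 of 10 members were at least 1.5-fold higher and 1 was at least 1.5-fold lower, beside 16.9% higher and 21.1% lower among 10214 genes. In the subcritical library 4 were higher and 2 lower, beside 16.4% and 22.1%. The medians over the 10 members were 0.57 and 0.35, against −0.06 and −0.08 over all genes. Both comparisons share the uninjured library, which had 165 FAP-like cells.

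Slc2a1, the transporter GLUT1 that brings glucose into most cells, was at 18.3 CPM in the critical, 18.2 in the subcritical and 6.17 in the uninjured library, the last from 4 UMIs (log2 1.43, 0.11 to 2.91, and 1.42, 0.05 to 2.95). Pfkl, the liver-type chain of phosphofructokinase at the committed step, was at 32.4, 23.9 and 10.8 CPM (log2 1.50, 0.46 to 2.69, and 1.08, −0.03 to 2.32). Eno1, an enolase, was at 62.0, 65.4 and 27.8 CPM (log2 1.13, 0.44 to 1.89, and 1.21, 0.50 to 1.98). For these 3 genes both injured libraries stood above the uninjured one, and only the subcritical interval of Pfkl reached 0. Slc2a1 turned to the other side with classes drawn by a marker score for each cell, at log2 −2.19 and −2.12.

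Pgk1, the first ATP-yielding kinase of the pathway, was at 141, 108 and 91.1 CPM in the critical, subcritical and uninjured libraries (log2 0.62, 0.23 to 1.04, and 0.25, −0.18 to 0.69). Ldha was at 499, 476 and 349 CPM (log2 0.51, 0.31 to 0.72, and 0.45, 0.23 to 0.67). Gpi1, which converts glucose 6-phosphate to fructose 6-phosphate, was at 193, 169 and 140 CPM (log2 0.45, 0.13 to 0.79, and 0.26, −0.08 to 0.62). These differences were smaller, and for Pgk1 and Gpi1 the subcritical interval included 0.

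Pfkp, the platelet-type phosphofructokinase chain, was lower in both injured libraries. It was at 35.5 CPM in the critical, 30.8 in the subcritical and 67.9 in the uninjured library (log2 −0.92, −1.44 to −0.37, and −1.11, −1.72 to −0.51). So the liver-type and platelet-type chains of the same enzyme lay on opposite sides of 0. Aldoa was at 478, 440 and 543 CPM (log2 −0.18, −0.36 to −0.01, and −0.30, −0.49 to −0.11). Between the critical and the subcritical library, 0 members were 1.5-fold higher and 1, Hk2 (log2 −0.93, −1.39 to −0.47), was 1.5-fold lower, beside 5.96% and 4.82% of 10108 genes.

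The injured and uninjured FAP-like classes were made of different cells. The Postn- and Lrrc15-led cluster held 49.9% of critical, 43.5% of subcritical and 0 of 165 uninjured FAP-like cells, which allows up to 1.82%, and the Pi16- and C7-led cluster 32.8%, 38.6% and 95.8%. Within the Pi16- and C7-led cluster, with 295, 290 and 158 cells, the sum of the 10 members was at 1309, 1270 and 1300 CPM, against 1517, 1411 and 1290 over the whole class. There the critical library was still above the uninjured one for Hk2 (log2 1.41, 0.0066 to 2.92), Pfkl (1.28, 0.06 to 2.61), Eno1 (1.05, 0.22 to 1.93) and Ldha (0.30, 0.05 to 0.55). Pfkp (−0.74, −1.46 to −0.05) and Aldoa (−0.31, −0.53 to −0.08) stayed below 0. Pgk1 was at −0.20 (−0.75 to 0.34), and Slc2a1 had 2, 6 and 4 UMIs in the critical, subcritical and uninjured libraries.
Within the same cluster the subcritical library stood above the uninjured one for Hk2 at log2 1.84 (0.43 to 3.35), and Aldoa stood at −0.39 (−0.64 to −0.14). The Postn- and Lrrc15-led cluster had Slc2a1 at 22.7 CPM in the critical library and 21.6 in the subcritical one. Its Pgk1 was at 177 and 134 CPM, and its Ldha at 567 and 544 CPM. A shallow FAP-like cluster led by noncoding transcripts such as Neat1, with 17.3% and 17.8% of the critical and subcritical class, had Aldoa at only 135 and 122 CPM and Hk2 at 101 and 93.0 CPM.

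**Figure D3:**
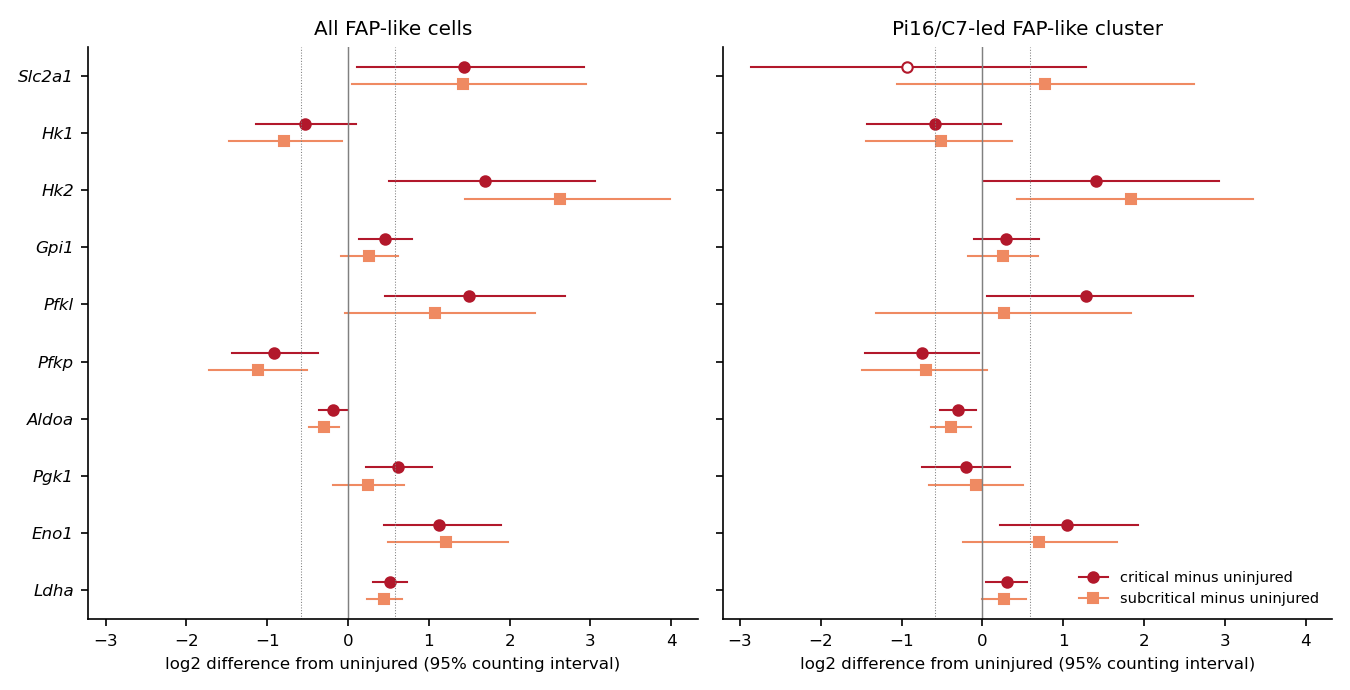
Log2 difference from the uninjured library for each of the 10 genes in all FAP-like cells (left) and in the Pi16- and C7-led cluster (right), with 95% counting intervals and dotted lines at 1.5-fold. Circles are critical minus uninjured and squares subcritical minus uninjured, and the open circle marks a mean under 5 CPM. Hk2 is the farthest to the right in all FAP-like cells (1.70 and 2.63), and Pfkp the farthest to the left (−0.92 and −1.11).

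Of 22 other glycolysis genes 11 were measured at a mean of 5 CPM or more. In critical cells 4 of them were at least 1.5-fold higher and 0 lower, with a median log2 of 0.45, and in subcritical cells 2 higher and 0 lower, with a median of 0.37. The lowest of the 11 were at log2 −0.44 and −0.51, both Ldhb, the heart-type lactate dehydrogenase chain. Pkm, a pyruvate kinase gene whose splice forms are not told apart here, was at 397, 373 and 198 CPM in the critical, subcritical and uninjured libraries. Tpi1, triosephosphate isomerase, was at 266, 259 and 182 CPM. Gapdh, the dehydrogenase before Pgk1, was at 301, 206 and 159 CPM. The lactate exporter Slc16a3, named after its values were seen, was at 51.5 CPM in the critical, 42.2 in the subcritical and 3.09 in the uninjured library, the last from 2 UMIs, a log2 difference of 3.68 (2.08 to 5.27) and 3.40 (1.77 to 5.01).

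Of 25 regulators of glycolysis and pyruvate use 17 were measured in FAP-like cells, with 4 higher and 3 lower in the critical and 4 higher and 7 lower in the subcritical library. Hif1a, the hypoxia-inducible factor subunit, was at 165, 198 and 63.3 CPM in the critical, subcritical and uninjured libraries. The mitochondrial pyruvate carrier genes Mpc2 and Mpc1 were at 174, 201 and 228 CPM and at 122, 98.1 and 148 CPM. Of 15 other hypoxia-induced genes 13 were measured, with 3 higher and 3 lower in each injured library. Mif, a cytokine, was at 459, 453 and 130 CPM, while P4ha1, a collagen prolyl hydroxylase, was at 129, 141 and 142 CPM and the stress-response gene Ddit4 at 142, 113 and 154 CPM. Of the 7 pentose phosphate genes 1 was higher and 3 lower in the critical library, and 1 higher and 2 lower in the subcritical one. Of 17 citric acid cycle genes 2 were higher and 0 lower in each. Cell cycle genes were higher for 10 of 12 measured in each injured library, where a mean of 5 CPM can come from the injured library alone. Called cycling were 4.52%, 3.42% and 0.658% of critical, subcritical and uninjured FAP-like cells. Muscle fibre transcripts, which these cells should lack, summed to 82.3, 73.0 and 26.2 CPM. The part of cycling cells and of fibre or macrophage transcripts in these differences was not tested.

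Within macrophage-like cells Aldoa and Ldha, and with them the sum of the members, were highest in 1 of 3 clusters. The cluster led by Mmp12, Gpnmb and Spp1 (an elastase, a lysosomal glycoprotein and the cytokine osteopontin) had the highest sum of the 10 members in 8 of 8 injured animals. It had 2191 to 2974 CPM per animal (median 2510), against 1144 to 2098 (median 1414) in the MHC class II cluster and 1053 to 1396 (median 1170) in the cluster led by Mrc1, a mannose receptor, and F13a1. Aldoa was at 772 to 1073 CPM in the Mmp12-led cluster, against 292 to 824 in the MHC class II cluster and 314 to 501 in the Mrc1-led cluster. Ldha was at 567 to 838 CPM, against 275 to 535 and 202 to 296. Both genes were highest in the Mmp12-led cluster in 8 of 8 animals. These 2 of 10 members stand beside 1.77% of 9309 genes at a mean of 5 CPM or more, and as 2 of 5 members beside 6.25% of 1439 genes at a mean of 100 CPM or more. The clusters were made from the same cells and genes, so nothing is read from these shares.

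Slc2a1 in the Mmp12-led cluster was at 21.7 to 69.0 CPM per animal, against 0 to 24.2 in the MHC class II cluster and 0 to 52.7 in the Mrc1-led cluster, and was higher in 8 of 8 and 7 of 8 animals. Pgk1 was higher there in 7 of 8 animals against each. Hk2, Gpi1 and Eno1 were each higher there than in the MHC class II cluster in 6 of 8 animals and than in the Mrc1-led cluster in 7 of 8. Pfkp was higher in 8 of 8 and 4 of 8, and Hk1 and Pfkl each in 5 of 8 and 3 of 8. How often any gene is higher between such pairs of clusters was not computed, so nothing is read from these counts. The Mmp12-led cells were deeper, with a median of 2517 UMIs against 1118 in the MHC class II and 1004 in the Mrc1-led cluster, and 25.8% of them were called cycling, against 6.78% and 2.51%. The part of depth and of the cell cycle in this order was not tested. Between critical and subcritical animals, edgeR called none of the members tested within any of the 3 clusters. Tested were Gpi1, Aldoa and Ldha in each cluster, Pgk1 in the MHC class II and Mmp12-led ones, and Eno1 in the Mmp12-led one. Of all genes it called 22 of 1435 in the MHC class II, 14 of 1006 in the Mrc1-led and 16 of 1715 in the Mmp12-led cluster. With such low shares, nothing is read from the lack of calls. Among the members the lowest adjusted p by edgeR was 0.425, for Gpi1 in the MHC class II cluster, at log2 0.50 ± 0.224 (SE).

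**Figure D4:**
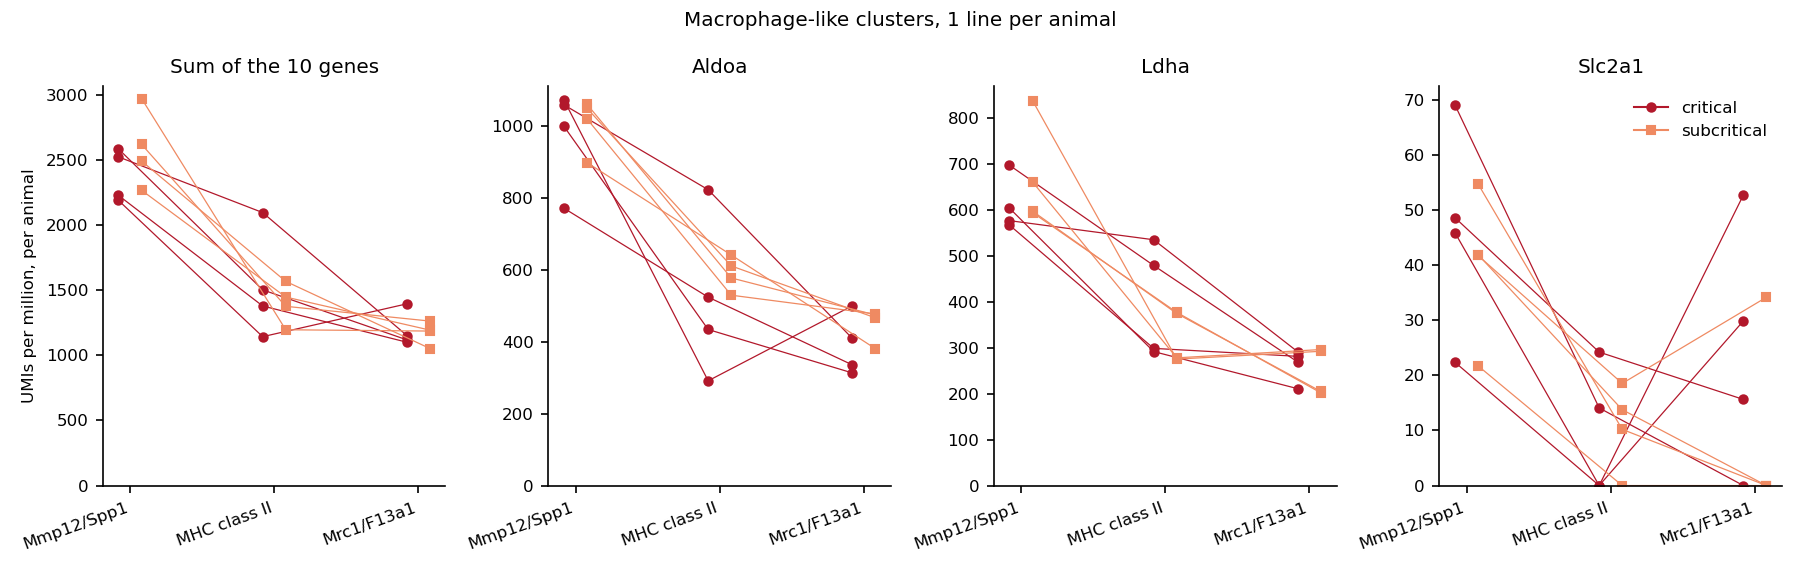
Sum of the 10 genes, Aldoa, Ldha and Slc2a1 in the 3 macrophage-like clusters, in CPM for each injured animal, with lines joining the clusters of 1 animal. Circles are critical and squares subcritical animals (4 each). In the first 3 panels every line is highest at the Mmp12/Spp1 cluster, where the sum is 2191 to 2974 CPM.

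Macrophage-like cells held more Aldoa and Pgk1 transcript than endothelial-like cells of the same injured animals. The comparison used the 3 critical and 3 subcritical animals with at least 20 cells of both classes. With the animal as a block in edgeR, Aldoa differed by log2 0.90 ± 0.129 (SE, adjusted p = 1.5e-11), Pgk1 by 0.69 ± 0.240 (adjusted p = 0.00791) and Eno1 by 1.05 ± 0.282 (adjusted p = 4.4e-04). Gpi1 at 0.18 ± 0.172 (adjusted p = 0.385) and Ldha at 0.21 ± 0.137 (adjusted p = 0.177) were not called. These 3 of 5, all higher, stand beside 61.1% of all 2643 genes called between the 2 classes in either direction, and 848 of them called higher. With 5 members tested, nothing is read from this share. Genes could enter this fit through their counts in 1 class alone. Eno1 had only 3 to 10 UMIs per animal in endothelial-like cells and was too low to test there. Its direction was thus partly set by that filter. Of the other glycolysis genes 4 of 4 tested were higher in macrophage-like cells. They were Pgam1 (1.66, adjusted p = 3.5e-15), Pkm (1.13, adjusted p = 2.6e-13), Tpi1 (1.22, adjusted p = 1.5e-08) and Gapdh (0.68, adjusted p = 3.0e-05).

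Of the pentose phosphate genes 3 of 4 tested were higher in macrophage-like cells by edgeR. They were Pgd, a dehydrogenase that yields NADPH (2.10), and Tkt (1.51) and Taldo1 (1.26) of the non-oxidative branch. Among regulators 2 of 5 were higher, the pyruvate carrier genes Mpc1 (1.07) and Mpc2 (0.61), and 3 were lower: Epas1, the endothelial hypoxia-inducible factor (−5.60), the oxygen sensor Egln1 (−1.77) and Hif1a (−0.55). Of the citric acid cycle genes 3 of 10 tested were higher (Idh2, Sdhb and Sdhc), and of the other hypoxia-induced genes 2 of 5 were higher (Mif and Mxi1) and 2 lower (Ndrg1 and Ddit4). The 3 cell cycle genes tested (Ube2c, Stmn1 and Pcna) were also higher. No cell cycle gene passed the filter on counts in the fits of endothelial-like cells alone, so this direction was partly set by the filter. Whether the critical minus subcritical difference itself differed between the 2 classes was tested by an interaction term in edgeR. It called 0 of 5 members and 0 of all 2643 genes, a share of 0%, with 121 at an unadjusted p under 0.05, and DESeq2 called 0 with 19 unadjusted.

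In endothelial-like cells none of the 4 members that could be tested was called between groups. They were Gpi1, Aldoa, Pgk1 and Ldha, in 3 critical, 3 subcritical and 4 uninjured animals. Against uninjured animals edgeR called 19.0% of 2169 genes in critical and 13.8% in subcritical ones, and between the injured groups 0.461%. Gpi1 was at 419, 210 and 231 TMM-scaled CPM in the 3 critical animals, 287, 447 and 278 in the 3 subcritical animals, and 199, 233, 176 and 238 in the 4 uninjured animals. All 3 subcritical animals lay above all uninjured animals, as did 13.3% of all genes tested, while 2 of the 3 critical animals lay within their range. Gpi1 differed by log2 0.45 ± 0.239 (SE, adjusted p = 0.215) in critical and 0.66 ± 0.259 (adjusted p = 0.0852) in subcritical animals.
Gpi1 was called in subcritical animals where mice with 10 cells were let in (adjusted p = 0.0398). Pgk1 stood at 0.44 (adjusted p = 0.410) in critical and 0.21 (adjusted p = 0.822) in subcritical animals. Aldoa stood at 0.12 and 0.01, and Ldha at 0.07 and 0.01. Between critical and subcritical animals the 4 genes had adjusted p of 0.929 to 0.976. Hk2 had 1, 0 and 1 UMIs over all endothelial-like cells of the critical, subcritical and uninjured libraries.

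Of the 4 other glycolysis genes tested in endothelial-like cells, 1 was called in critical animals and 0 in subcritical ones, beside the 19.0% and 13.8% of all genes. That gene was Gapdh, higher in critical than in uninjured animals (log2 1.15, edgeR adjusted p = 3.2e-05). Pgls, the lactonase of the pentose phosphate pathway, was higher in critical (1.03, adjusted p = 0.00314) and in subcritical animals (1.04, adjusted p = 0.0108). Hif1a was higher in subcritical animals (1.30, adjusted p = 0.00642). Epas1 was lower in critical (−0.49, adjusted p = 0.0105) and subcritical animals (−0.65, adjusted p = 0.00207), and Egln1 in critical animals (−0.90, adjusted p = 0.0483). No gene of the citric acid cycle (0 of 4) or of the other hypoxia-induced genes (0 of 4) passed in either comparison.

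The endothelial-like class was also made of different cells in injured and uninjured muscle. The Aplnr-led cluster held 57.6% of critical, 64.4% of subcritical and 8.90% of uninjured endothelial-like cells, and the Timp4- and Car4-led cluster 17.5%, 9.52% and 63.8%. Within the Aplnr-led cluster Ldha was at 458 CPM in the critical, 500 in the subcritical and 262 in the uninjured library (log2 0.80, 0.28 to 1.36, and 0.93, 0.40 to 1.49). The sum of the 10 members there was at 1576, 1554 and 1164 CPM, against 1574, 1557 and 1446 over the whole class. The uninjured part of that cluster had 114 cells. Macrophage markers summed to 678, 599 and 36.8 CPM in critical, subcritical and uninjured endothelial-like cells, with 15, 14 and 9 of 15 detected, and their part in these differences was not tested.

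Slc2a1 was uneven within the endothelial-like class. In the cluster led by Selp and Ackr1, an adhesion receptor and a chemokine receptor of venules, it was at 93.6 CPM (12 UMIs) in the critical, 97.8 (10) in the subcritical and 111 (29) in the uninjured library. In the Timp4- and Car4-led cluster it had no UMI in the critical and subcritical libraries, which allows up to 25.2 and 57.7 CPM, and stood at 17.3 CPM in the uninjured library. In the Aplnr-led cluster it was at 11.1, 16.0 and 7.71 CPM and in the Gkn3- and Sema3g-led cluster at 8.63, 13.6 and 31.4 CPM. The Selp- and Ackr1-led cluster was thus the highest of the 4 in each library, and its 3 intervals overlapped. The highest level of any cluster was in a small cluster led by Sfrp5, Cldn1 and Krt19, with 20, 8 and 31 cells, which took no name. It held 12, 2 and 82 Slc2a1 UMIs, or 529, 216 and 1167 CPM. Uninjured glial-like cells had 91.4 CPM and uninjured neutrophil-like cells 51.2. A Col2a1-led cluster of 8 uninjured cells had 177 CPM.

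**Figure D5:**
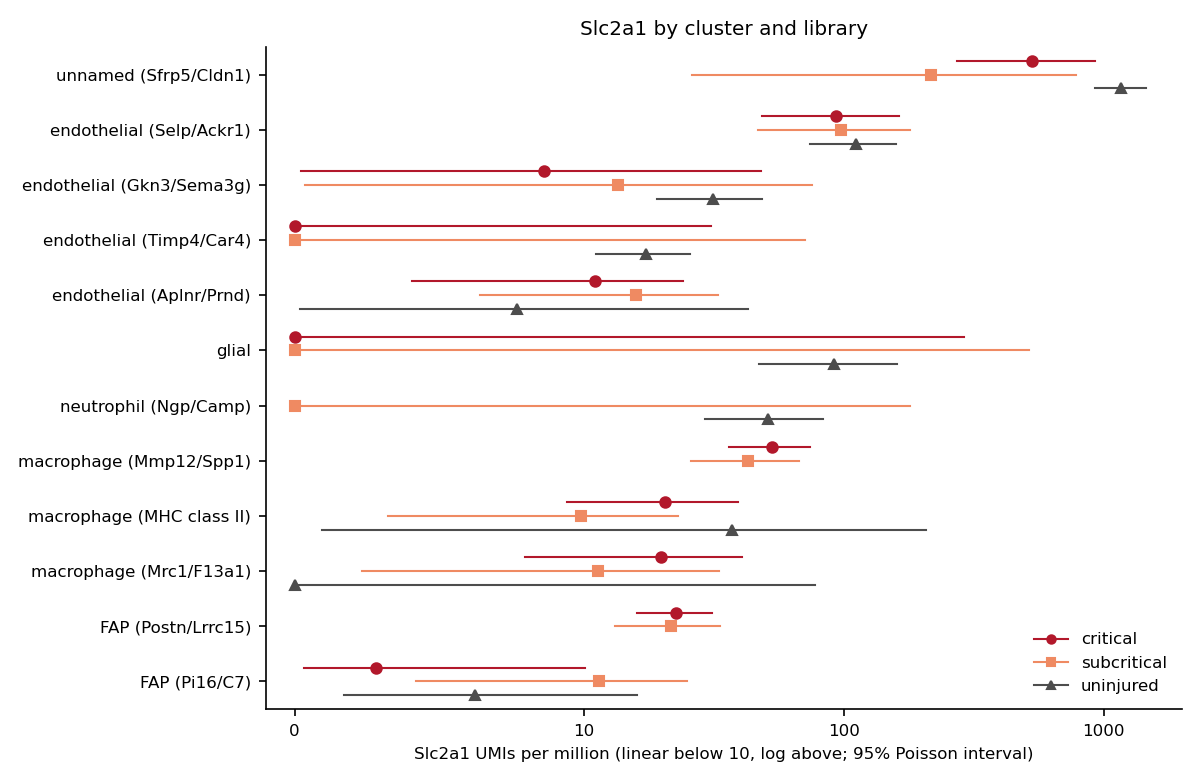
Slc2a1 in 12 clusters with at least 5 cells in a library, in CPM with 95% Poisson intervals, on an axis that is linear below 10 and logarithmic above. Circles are the critical, squares the subcritical and triangles the uninjured library. The unnamed Sfrp5/Cldn1 cluster (529, 216 and 1167 CPM) and the Selp/Ackr1 endothelial cluster (93.6, 97.8 and 111 CPM) are the highest of those drawn in the critical and uninjured libraries.

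In mural-like cells Aldoa, Gpi1 and Hk1 were lower in both injured libraries than in the uninjured one, and Ldha was higher. In the critical library 2 members were at least 1.5-fold higher and 4 lower than in the uninjured one, beside 29.9% and 19.4% of 10425 genes. In the subcritical library 2 were higher and 3 lower, beside 28.7% and 23.9% of 10234 genes. Hk2 was 1 of the 3 lower members, with no UMI. Its exact upper limit of 18.9 CPM lay above the 18.4 CPM of the uninjured library, so no size of decrease is bounded. The median log2 was −0.39 in the critical library. It was −0.34 in the subcritical one, or −0.24 with Hk2 set to 3 counts in that library. Over all genes the medians were 0.14 and 0.05. Aldoa was at 644, 687 and 1114 CPM in the critical, subcritical and uninjured libraries (log2 −0.79, −1.0 to −0.59, and −0.70, −0.97 to −0.44). Ldha was at 460, 477 and 282 CPM (log2 0.71, 0.42 to 0.99, and 0.76, 0.40 to 1.10). Slc2a1, the other member on the higher side, was at 24.3, 41.0 and 14.1 CPM (log2 0.75, −0.58 to 2.01, and 1.48, 0.06 to 2.79).
Gpi1 was at 273, 308 and 433 CPM and Hk1 at 51.4, 46.1 and 97.5 CPM. Of the 22 other glycolysis genes, 3 of 13 measured were higher and 5 lower in the critical library. In the subcritical one 0 of 10 were higher and 5 lower. A gene counts as measured at a mean of 5 CPM over the 2 libraries compared, so it can enter through 1 of them alone. The 3 and the 0 higher are therefore not set against each other. Pkm was at 419, 410 and 627 CPM. Of 17 citric acid cycle genes 9 were lower in the critical library and 11 in the subcritical one, and 0 were higher. Cell cycle genes were higher for 16 of 16 and 12 of 13 measured. Of these, 4 and 2 had no UMI in 1 of the 2 libraries, so their direction was partly set by the same rule.

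The mural-like class, too, held different cells in injured and uninjured muscle. The cluster led by Myh11, a smooth muscle myosin, held 26.2% of critical, 32.7% of subcritical and 77.1% of uninjured mural-like cells, and the cluster led by Rgs5, a pericyte marker, 73.8%, 67.3% and 22.9%. Within the Myh11-led cluster Aldoa was at 818, 1122 and 1200 CPM, so the subcritical library was near the uninjured one (log2 −0.10, −0.47 to 0.26) and the critical one stayed lower (−0.55, −0.94 to −0.19). Within the Rgs5-led cluster Pgk1 was at 131, 171 and 42.2 CPM (log2 1.61, 0.45 to 2.97, and 1.99, 0.74 to 3.41), the last from 7 UMIs, and Gpi1 at 227, 246 and 127 CPM (0.84, 0.12 to 1.62, and 0.95, 0.12 to 1.81). Over the whole class Gpi1 was lower in injured libraries, and within the Rgs5-led cluster it was higher. FAP markers summed to 6693, 3220 and 1162 CPM in critical, subcritical and uninjured mural-like cells, and their part in these values was not tested.

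The remaining classes were compared as levels only. Myogenic-like cells, led by the myogenic regulators Myog and Myod1, had Pgk1 at 311 CPM in the critical library and 305 in the subcritical one. Their Aldoa was at 886 and 908, Eno1 at 136 and 218, and Ldha at 658 and 538. Each pair of intervals overlapped, and the muscle fibre transcripts in these cells summed to 367 and 1148 CPM. Tenocyte-like cells had Ldha at 608 CPM in the critical library and 470 in the subcritical one (log2 0.37, 0.11 to 0.64). Uninjured neutrophil-like cells had the highest Gpi1 of any class with 50 cells in a library, at 871 CPM. Of the 115 such cells traced to a mouse, 106 came from replicate 2, so values of this class are mostly those of that mouse. A small unnamed cluster led by the granule protein genes Elane and Mpo had 10 subcritical and 24 uninjured cells. Its Gpi1 was at 1353 CPM in the subcritical and 1168 in the uninjured library. Subcritical B-like cells had the lowest sum of the 10 members among named classes, 1248 CPM, and uninjured neutrophil-like cells the highest, 2840 CPM. Next came myogenic-like cells at 2362 and 2275 CPM in the critical and subcritical libraries and uninjured mural-like cells at 2300 CPM, which did not differ beyond their intervals.

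The genes most like the members in their levels over the 18 class-by-library sums were described by Pearson's r among 6945 genes with a mean of at least 20 CPM. Those most like the sum of the 10 members were Msra (0.83), Gapdh (0.82), Btg1 (0.79), Chd4 (0.78), Tmem131l (0.78), Tmem38b (0.77), Zyx (0.74), Pkm (0.74), Rbm38 (0.71) and Esrra (0.71). Gapdh was the gene most like Pgk1 (0.90) and most like Eno1 (0.82), and Pkm came second for Pgk1 (0.80). Serp1 (0.88) and Emb (0.81) were most like Hk2, Kitl (0.87) and Bnip2 (0.87) most like Hk1, and Fbxo28 (0.84) and Cln3 (0.82) most like Slc2a1. For Gpi1 these were Rab5if (0.87) and Usp3 (0.83), for Pfkl Stx17 (0.93) and Whamm (0.89), and for Pfkp C87436 (0.85) and Rbm5 (0.83). For Aldoa they were Bcor (0.84) and Chd4 (0.81), for Ldha Mfsd10 (0.87) and Abracl (0.87), and the second for Eno1 was Fbrs (0.79). Among the members Pgk1 and Eno1 had an r of 0.74 and Gpi1 and Eno1 0.65. These sums share libraries and depth, and the many genes compared make a high r common, so that the values describe likeness alone.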

How the data were processed

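Per the labels, quadriceps cells of 4 mice per group were hashtagged, pooled and run as 1 10x 5' library with TotalSeq-C antibodies. The authors deposited raw UMI counts from cellranger 6.0.2, per the file headers, and bcl2fastq, Cell Ranger and GRCm39 (mm39) are given in the submitters' processing notes.

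Cells had at least 200 genes, 500 UMIs and at most 20% mitochondrial UMIs. Cells with several hashtags (148, 117 and 77 in the critical, subcritical and uninjured libraries) and those marked by Scrublet (51, 23 and 1) were removed. Hashtags were called with a mixture model per tag, whose lowest called count ran from 2 to 6. Clustering used scanpy 1.11.5 (2000 variable genes without the members, 30 components, 15 neighbours, Leiden resolution 0.8, seed 1). A cluster took the class of its markers, and the clause that left the Sfrp5-led cluster unnamed was set after the clusters were seen.

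UMIs summed per animal (at least 20 cells) were tested with edgeR 4.0.16 (TMM, filterByExpr, robust quasi-likelihood, Benjamini-Hochberg over all genes, threshold 0.05), and DESeq2 1.42.0 served as an alternative. Antibodies other than the hashtags were not used here. The scripts were tested on simulated data. Library folds are log2 of (CPM + 1) with exact binomial intervals, for genes with a mean of 5 CPM, and a cycling cell had 2 cell cycle UMIs after thinning to 1000. All 10 members are named, with list genes that pass a test (at most 8 per list) or else the 3 highest. Alternatives were other classes, filters, normalization, cells, depth and animals left out. The members and lists were chosen with earlier results of these data known.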

Additional observations from a re-analysis of the deposited data

Results flagged for a closer look

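Gpi1 in macrophage-like cells of the critical animals had 1 animal apart from the others. Replicate 1 was at 219.8 TMM-scaled CPM, while the other 3 critical animals lay at 285 to 298. The gap of the lowest animal to its nearest neighbour exceeded Dixon's 95% limit for a group of 4. Of 29 groups of 4 animals examined 1 was flagged, and chance flags about 1 in 20. That animal had the fewest macrophage-like cells of the 8 injured animals, 82.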

How the results depend on the processing

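No pairing between groups was possible because the hashtag numbers name different animals in each group. The labels tie no animal of 1 group to an animal of another. Of the values recomputed, 170 counts and shares stayed within 1.5 times their main value or their spread and 17 moved. Of values of single genes 407 were counted as unchanged, 8 lost a call, 1 gained one and 4 changed sign. The 407 include library folds of FAP-like cells, which have no test and so no call to keep. For these folds, unchanged does not mean that the sign was kept in every setting.

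In macrophage-like cells the 1 member called between the injured groups, Hk2, became 0 with DESeq2 and without cycling cells, and 0 to 1 with an animal left out. Over the other settings Hk2 stayed at log2 −1.41 to −1.18 with adjusted p from 0.0031 to 0.270 and was called in 8 of 10. With 1 animal left out it was at −1.51 to −1.02 and was called in 4 of 8: the adjusted p was 0.258, 0.122, 0.225 and 0.117 without critical 2, critical 4, subcritical 3 and subcritical 4. Within single clusters Hk2 could not be fitted. Its share of cells was 4.25% unthinned against 1.52% thinned in critical cells, and 8.07% against 4.63% in subcritical ones.

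Between macrophage-like and endothelial-like cells the 3 members called became 6 without the filter on low counts, and 3 to 5 with an animal left out, 5 without subcritical 2. Aldoa and Eno1 were called in all 10 settings and all 8 refits without an animal, and Pgk1 in 9 of 10 and 7 of 8. Eno1 rests on few counts in endothelial-like cells. The refits without critical 1 and without subcritical 3 only repeat the main fit. These animals had 11 and 14 traced endothelial-like cells, too few to enter it. In subcritical against uninjured endothelial-like cells 0 members became 1 with animals of 10 cells let in, and Pgk1 turned to −0.26 without subcritical 2 and −0.0079 without uninjured 4 (up to 0.53, without subcritical 4). In FAP-like cells the 1 member lower in the critical library became 2 with coarser clusters, with marker-score classes, with the members among the variable genes, and without the shallow cluster, which was tried after the clusters were seen. With marker-score classes Slc2a1 turned to −2.19 (critical) and −2.12 (subcritical). In mural-like cells marker-score classes gave 1 member higher in the critical library in place of 2, and 5 lower in the subcritical library in place of 3. The cause of these shifts was not tested. Low counts of Slc2a1, Hk1, Hk2, Pfkl and Pfkp limit what can be seen in any class, and FAP-like and mural-like values have no replicates.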
